A study of Arabidopsis thaliana with 6 samples.

Results

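The genes of Arabidopsis thaliana for phosphatidylinositol 4-phosphate 5-kinases (PIP5K) were followed in sorted mature pollen. They were taken by locus from a fixed list that holds PIP5K1, 2, 3, 4, 5, 6, 8, 9, 10 and 11, and all 10 were found among the 27827 features of the array, 1 feature each. PIP5K7 was not on the list and is not analysed here. The list divides the genes into 5 pollen members (PIP5K4, 5, 6, 10 and 11) and 5 other members (PIP5K1, 2, 3, 8 and 9). Pollen came from plants heterozygous for a mutation in NOT1 (NOT1+/-) and from wild-type plants (WT), both of ecotype Columbia 0, with 3 biological replicates each. About 300000 grains per sample were purified by fluorescence-activated sorting, and 100 ng of total RNA was labelled for a 1-colour whole-transcript array. The NOT1 protein holds together CCR4-NOT, a large assembly whose deadenylases trim the poly(A) tail of transcripts ahead of their decay. A heterozygous plant sheds grains with and without the mutant allele, so a NOT1+/- sample is a mixture of both. The sources used here do not give the kind of mutation.

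These kinases add a phosphate to phosphatidylinositol 4-phosphate and so make phosphatidylinositol 4,5-bisphosphate, a minor lipid of the plasma membrane. In pollen tubes that lipid lies in a zone near the tip, where it guides secretion, endocytosis and the actin cytoskeleton. Most of the kinases carry MORN repeats ahead of the catalytic domain. PIP5K10 and PIP5K11 form a short subtype without them.

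The deposited values are array intensities on a linear scale. Array medians lay between 12.0 and 12.3 in NOT1+/- and between 12.3 and 13.1 in WT, and the 95th percentiles between 193 and 202 in NOT1+/- and between 133 and 141 in WT. The upper end of the intensities was thus higher in NOT1+/- as deposited. Features in the highest 10% of WT level nevertheless had a median log2 fold change of -0.03. The sources used here do not give the scaling between arrays. NOT1 itself, which checks the labels, had intensities of 28.6, 31.8 and 32.6 in NOT1+/- and 47.6, 51.0 and 46.9 in WT (log2 fold change -0.65, SE 0.15, limma adjusted p = 0.029). That call ended when any 1 array was left out (log2 fold change -0.68 to -0.59) and with median centring (-0.57, adjusted p = 0.055). Features have different probes and no detection calls were given, so intensities of different genes are described by their place on the array and are not an order of transcript amounts.

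In WT pollen 4 of the 5 pollen members were bright and 1 was dim. PIP5K11 (AT1G01460_at), PIP5K6 (AT3G07960_at), PIP5K4 (AT3G56960_at) and PIP5K5 (AT2G41210_at) lay at or above the 94.8th percentile of features on each WT array and at or above the 96.5th on each NOT1+/- array. PIP5K10 (AT4G01190_at), although listed with the pollen members, lay between the 6.64th and 16.4th percentiles in NOT1+/- and between the 13.1th and 27.2th in WT. Its values therefore do not separate it from background on these arrays. The 5 other members spread from the 13.8th to the 78.2th percentile in NOT1+/- and from the 17.1th to the 84.4th in WT. PIP5K1 was the brightest of them, and PIP5K2, PIP5K8 and PIP5K9 had group means below or close to the array medians. The median of the class means was 363 in NOT1+/- and 144 in WT for the pollen members, and 10.02 in NOT1+/- and 12.8 in WT for the other members.

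**Figure D1:**
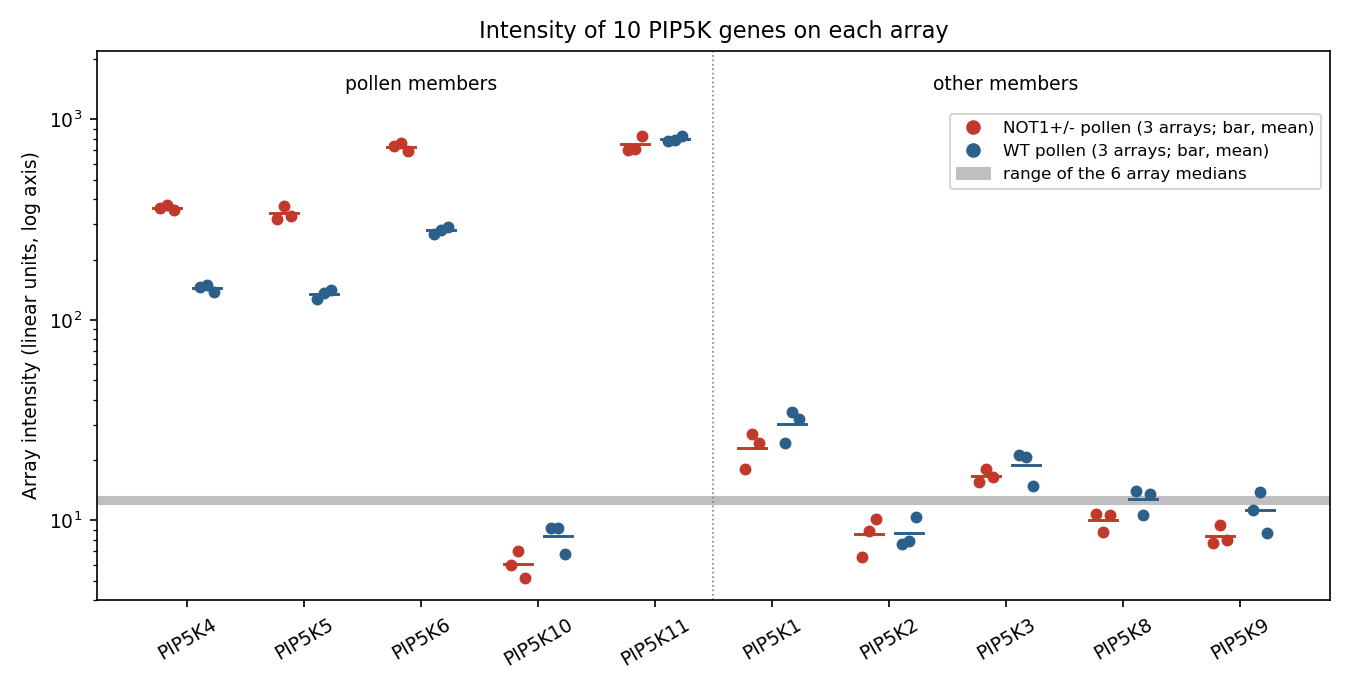
Array intensity (linear units on a log axis) of the 10 PIP5K genes on each of 3 NOT1+/- arrays (red) and 3 WT arrays (blue), with bars at the group means and a grey band for the range of the 6 array medians. PIP5K4, PIP5K5 and PIP5K6 were higher on all 3 NOT1+/- arrays than on any WT array, and the share of all features without overlap was not counted. PIP5K11 overlapped between the groups at means of 750 and 802, and PIP5K10 lay below the array medians.

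In NOT1+/- pollen PIP5K4, PIP5K5 and PIP5K6 rose, each to about the same multiple of WT, and the remaining 7 genes did not pass the test. Limma called 3 of 5 pollen members higher and 0 lower, against 8.84% of all features called higher and 3.22% called lower. It called 0 of 5 other members (0 also at an unadjusted p under 0.05, and 0 by an unequal-variance test per feature), against 12.1% of all features called in either direction. Among features in the highest 10% of WT level, a range that holds the 4 bright pollen members, 18.7% were called higher and 11.5% lower. The median log2 fold change was 1.33 over the pollen members, -0.34 over the other members and -0.10 over all features. A feature was called at a Benjamini-Hochberg adjusted p under 0.05 over all 27827. With 3 against 3 arrays the exact two-sided permutation test over single genes cannot go below 0.1.

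PIP5K6 acts in clathrin-dependent endocytosis at the pollen tube tip. Its intensities were 738, 760 and 699 on the NOT1+/- arrays and 269, 280 and 290 on the WT arrays. All NOT1+/- arrays were far above all WT arrays, and neither group spread by more than a small part of the gap. How many of all features had groups without overlap was not counted. PIP5K6 rose by 1.39 on the log2 scale (SE 0.15, 95% interval 1.05 to 1.73, limma adjusted p = 5.49e-04, exact permutation p = 0.1), a 2.62-fold increase.

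PIP5K4 and PIP5K5 are close paralogs that act together in pollen germination, pectin secretion and tube growth. PIP5K4 had intensities of 360, 376 and 352 in NOT1+/- and 146, 149 and 137 in WT. PIP5K5 had 320, 372 and 330 in NOT1+/- and 128, 137 and 140 in WT. The groups did not overlap for either gene. Groups without overlap also occurred in genes that were not called, such as FAB1B of the lists below. The share of such genes over all features was not counted. PIP5K4 rose by a log2 fold change of 1.33 (SE 0.15, 95% interval 0.99 to 1.67, limma adjusted p = 6.62e-04), or 2.52-fold. PIP5K5 rose by 1.34 (SE 0.15, 95% interval 0.98 to 1.69, adjusted p = 8.31e-04), also 2.52-fold, and the exact permutation p was 0.1 for both.

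PIP5K11 acts with PIP5K10 on the actin cytoskeleton of the pollen tube. It was the brightest of the 10 genes in WT, with intensities of 705, 716 and 828 in NOT1+/- and 782, 794 and 831 in WT. The groups overlapped, since NOT1+/- replicate 3 lay above both of the lower WT arrays. PIP5K11 had a change of -0.10 on the log2 scale (SE 0.15, 95% interval -0.46 to 0.26, limma adjusted p = 0.73), so the interval runs from 0.728 to 1.19 times the WT level. PIP5K10 had intensities of 5.97, 7.02 and 5.19 in NOT1+/- and 9.13, 9.20 and 6.80 in WT. NOT1+/- replicate 2 and WT replicate 3 crossed. The log2 fold change of PIP5K10 was -0.46 (SE 0.20, limma adjusted p = 0.19, unadjusted p = 0.048), measured among values below the array medians.

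**Figure D2:**
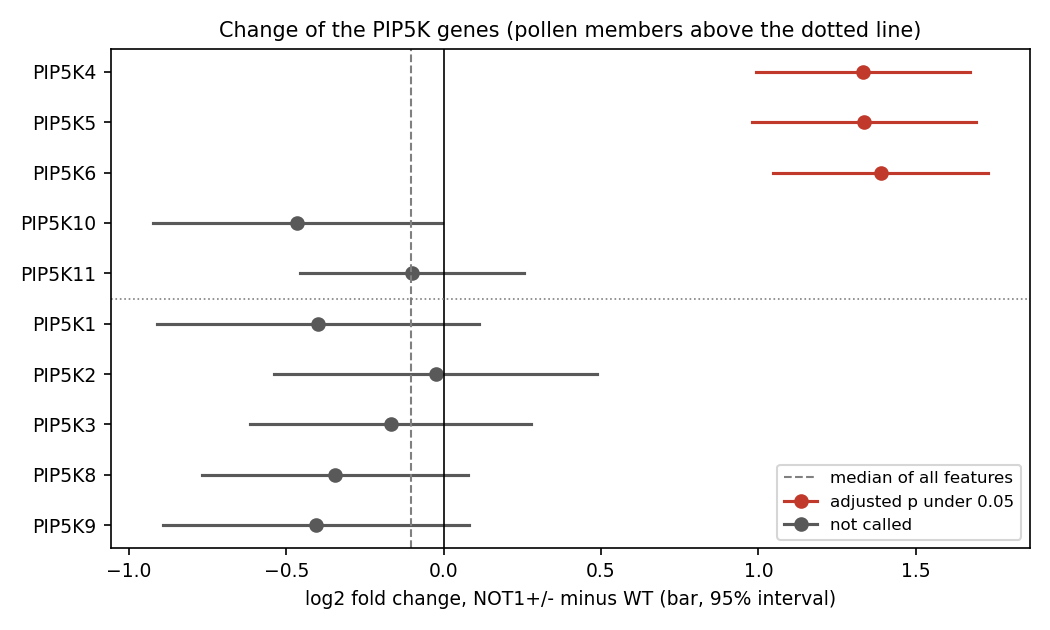
Log2 fold change of each PIP5K gene, NOT1+/- minus WT, with 95% intervals from limma on 3 arrays per group; red marks an adjusted p under 0.05 and the dashed line the median of all features at -0.10. PIP5K4, PIP5K5 and PIP5K6 lie between 1.33 and 1.39, and the other 7 genes between -0.46 and -0.03.

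Among the other members, PIP5K1 and PIP5K2 are broadly expressed paralogs with roles in growth and development, PIP5K3 is required for root hair elongation, and PIP5K9 is known from root growth, where it binds a cytosolic invertase. PIP5K1 (AT1G21980_at) had intensities of 18.1, 26.8 and 24.4 in NOT1+/- and 24.2, 34.8 and 32.2 in WT, with overlapping groups. Its log2 fold change was -0.40 (SE 0.22, limma adjusted p = 0.31). PIP5K2 (AT1G77740_at) ranged from 6.58 to 10.2 in NOT1+/- and from 7.59 to 10.5 in WT (-0.03, SE 0.22). PIP5K2 was dim in both groups, and the sign of its difference turned under some settings. PIP5K3 (AT2G26420_at) ranged from 15.5 to 18.1 in NOT1+/- and from 14.8 to 21.2 in WT (-0.17, SE 0.19). PIP5K8 (AT1G60890_at) ranged from 8.74 to 10.7 in NOT1+/- and from 10.7 to 14.1 in WT (-0.34, SE 0.18). PIP5K9 (AT3G09920_at) ranged from 7.76 to 9.44 in NOT1+/- and from 8.67 to 13.8 in WT (-0.41, SE 0.21). The groups overlapped for all 5 genes, and the limma adjusted p-values lay between 0.28 and 0.96.

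Differences between members were also read within each array, where a common scale factor of the array cancels. The intensity of PIP5K5 over that of PIP5K4 was 0.890, 0.989 and 0.938 on the NOT1+/- arrays and 0.875, 0.917 and 1.02 on the WT arrays. These ratios overlapped, and their change was 0.00 on the log2 scale (exact two-sided permutation p = 1). PIP5K2 over PIP5K1 was 0.364, 0.331 and 0.417 in NOT1+/- and 0.313, 0.227 and 0.325 in WT. It did not overlap between the groups, with a log2 change of 0.37 (exact permutation p = 0.1, 0.3 after Benjamini-Hochberg over the 3 paralog pairs), a change that rests on dim values. PIP5K10 over PIP5K11 changed by -0.36 (exact permutation p = 0.3, 0.45 adjusted), with overlapping ratios. Its sign turned to 0.18 after quantile normalization, and it was -0.0447 with 16 units added and -0.0300 with a floor of 8. PIP5K10 was dim in both groups.

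The ratio of PIP5K6 to PIP5K11, chosen after its values were seen and given with no test, was 1.05, 1.06 and 0.843 on the NOT1+/- arrays and 0.343, 0.353 and 0.3495 on the WT arrays. The ratios of PIP5K4 and PIP5K5 to PIP5K11 moved likewise, by log2 changes of 1.43 and 1.44 against 1.49 for PIP5K6. None of these 3 ratios overlapped between the groups. They share PIP5K11 as denominator and were picked from the member changes above. They therefore restate those changes and are no separate result. Against each other, PIP5K6 over PIP5K4 changed by 0.06 and PIP5K6 over PIP5K5 by 0.05 on the log2 scale, with overlapping ratios. Whether probes of one paralog also bind transcripts of another was not tested, although no other feature had the same 6 values as any member.

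The size of the 3 rises depended on the scaling of the arrays. Quantile normalization, which makes the arrays' distributions identical and so lowers bright NOT1+/- values, gave log2 fold changes of 0.75 for PIP5K4 (1.68-fold, limma adjusted p = 0.0117), 0.77 for PIP5K5 (1.70-fold, 0.0119) and 0.79 for PIP5K6 (1.73-fold, 0.00825). PIP5K11 then had -0.55 (adjusted p = 0.067). The calls of PIP5K4, PIP5K5 and PIP5K6 held under each of the 17 alternatives, and none of the other 7 genes was called under any alternative in which it was tested. Over all features 73.3% of calls were higher with the values as deposited and 52.5% after quantile normalization. Of all features 4.91% had a log2 fold change of at least 1.33, the smallest of the 3, and of the features in the highest 10% of WT level 7.58% did.

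**Figure D3:**
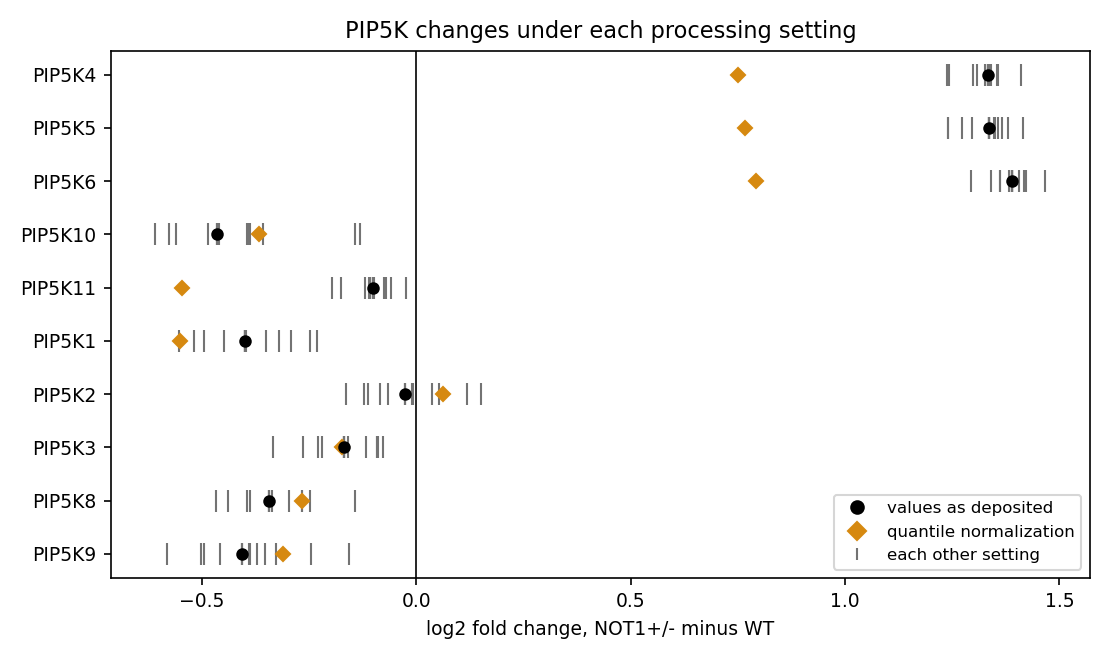
Log2 fold change of each PIP5K gene, NOT1+/- minus WT, with the values as deposited (black), after quantile normalization (orange) and under each other processing setting (grey ticks). PIP5K4, PIP5K5 and PIP5K6 keep values of 0.75 to 1.47 in all settings, with the lowest after quantile normalization.

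**Figure D4:**
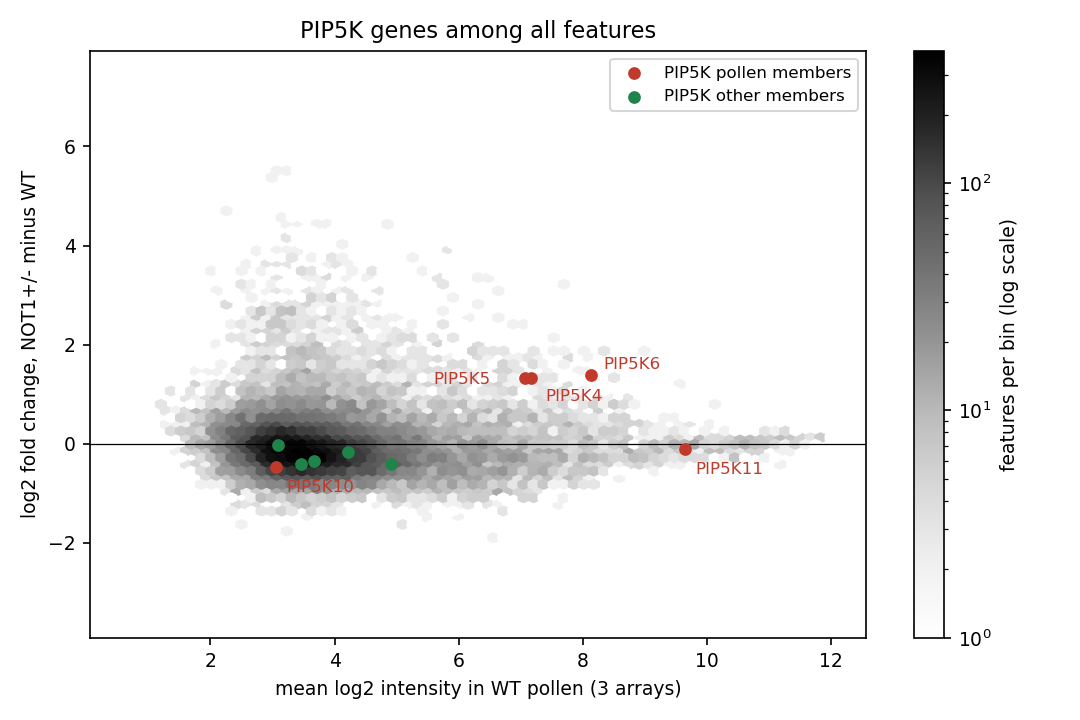
Log2 fold change, NOT1+/- minus WT, against mean log2 intensity in 3 WT arrays for all 27827 features (grey, features per bin on a log scale), with the pollen members in red and the other members in green. PIP5K4, PIP5K5 and PIP5K6 sit above the bulk of features of like WT level, and PIP5K11 sits on it at -0.10.

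Markers of the cells in a pollen sample moved beside these genes. Of 7 markers of pollen and its vegetative cell, 5 rose and 0 fell, and their summed intensity was 10199 to 11212 in NOT1+/- and 7204 to 7949 in WT. The summed intensity of all features was also higher, at 1.57e+06 to 1.60e+06 in NOT1+/- and 1.30e+06 to 1.31e+06 in WT. The shares called higher were 8.84% of all features and 18.7% of those in the highest 10% of WT level. AGL104, a pollen MADS-box factor, had 664 ± 112 in NOT1+/- and 215 ± 4.35 in WT (SD, n = 3 each; log2 fold change 1.61, limma adjusted p = 6.10e-04). The pollen actin ACT4 had 799 ± 100.03 in NOT1+/- and 275 ± 14.6 in WT (1.53), the actin ACT12 had 0.96, the pectin methylesterase PPME1 1.09 and the receptor kinase ANX1 0.61. VGD1, another pollen pectin methylesterase, had 0.09 and ANX2, the partner of ANX1, -0.29, and neither was called. The count higher was 4 without any 1 array, with 75th percentile centring, by the unequal-variance test and with the replicate block. After quantile normalization 3 of the 7 were higher and 1 lower, and eBayes with trend and robust also called 1 lower. Each sample was labelled from 100 ng of total RNA, so the intensities do not give RNA per grain. In these bulk samples, a larger share of such RNA within grains and a different mixture of grains cannot be told apart. The part of either in the PIP5K rises was not tested. The scaling between arrays, with which these counts changed, is not known either.

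Of 4 sperm cell markers, MGH3 (0.75) and DUO1 (1.08) rose and GEX2 and HAP2 were not called, with summed intensities of 327 to 509 in NOT1+/- and 267 to 287 in WT. The count was 1 when any 1 array was left out, after quantile normalization, with 75th percentile centring and with the replicate block, and 0 by the unequal-variance test. Beside this count and those of the other tissues, 8.84% of all features were called higher and 3.22% lower. Markers of other tissues had group means of 21.5 or less, apart from the tapetum marker AT5G07230 at 37.4 ± 12.4 in NOT1+/- and 36.7 ± 11.8 in WT (SD, n = 3 each). The 6 leaf photosynthesis markers summed to 34.7 to 41.3 in NOT1+/- and 49.1 to 60.5 in WT, and CAB2 (-0.72) and LHCA1 (-0.87) fell, calls that were reduced to 1 without WT replicate 1 or NOT1+/- replicate 1 and to 0 without each other array. The 4 floral organ markers AP1, AP3, PI and SEP3 summed to 41.1 to 55.0 in NOT1+/- and 43.5 to 45.9 in WT, and 0 were called (limma; 1 was higher, PI, at an unadjusted p under 0.05 and in the fit restricted to features above the median level). Of 3 tapetum markers, which summed to 36.7 to 59.9 in NOT1+/- and 42.3 to 65.7 in WT, EXL4 fell (-0.74), a call lost when any 1 array other than WT replicate 3 was left out. CAB2 and EXL4 had means below the array medians in both groups, and LHCA1 in NOT1+/-, so these falls rest on dim values.

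The enzymes around the PIP5K step were read from 4 lists of 51 loci in all. Together they had 9 called higher and 2 lower, with 40 not called and a median log2 fold change of 0.04. Over all features 8.84% were called higher and 3.22% lower, and in the highest 10% of WT level 18.7% and 11.5%. The lists were chosen with earlier results of these data known.

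Upstream of the PIP5K genes, the 13 phosphatidylinositol synthases and 4-kinases had 2 rises and 1 fall (median log2 fold change -0.03), beside 8.84% and 3.22% of all features. The synthases PIS1 and PIS2 had -0.03 and 0.10 and were not called. The kinases that make the PIP5K substrate, ATPI4K ALPHA, PI-4KBETA1 and PI-4KBETA2, had -0.44, -0.45 and -0.35 and were not called either (limma adjusted p = 0.15, 0.14 and 0.30). Their unadjusted limma p-values were 0.032, 0.030 and 0.10. These 5 genes are named after their values were seen. Falls of the list numbered 3 after quantile normalization, with 16 units added and with the level filter at the 75th percentile. The genes behind those counts were not listed, so ATPI4K ALPHA and PI-4KBETA1 may be among them. With the values as deposited, these 2 and AT1G13640 were its only falling genes at an unadjusted limma p under 0.05. The 3 calls with the values as deposited lay among gamma-type genes, which resemble lipid kinases in sequence and of which some members are known as protein kinases. PI4K GAMMA 7 had 127 ± 8.18 in NOT1+/- and 5.90 ± 0.527 in WT (log2 fold change 4.43, SE 0.16, adjusted p = 4.44e-06), and AT1G26270 had 33.15 ± 6.002 in NOT1+/- and 9.84 ± 2.72 in WT (1.77, SE 0.24). The WT means of both lay below the array medians, so the sizes are uncertain. AT1G13640 fell by 0.68 on the log2 scale, a call lost with median centring and without each single array other than WT replicate 2. PI4K GAMMA 1 was the brightest gene of the list, with 2567 ± 236 in NOT1+/- and 2497 ± 212 in WT (0.04, not called).

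Among 5 kinases that make the 3-phosphorylated lipids, VPS34, the phosphatidylinositol 3-kinase, rose, with 41.1 ± 2.75 in NOT1+/- and 13.7 ± 2.04 in WT (log2 fold change 1.59, SE 0.17, limma adjusted p = 6.08e-04). The VPS34 values of WT replicates 1 and 3, 12.93 and 12.2, lay below the medians of those arrays, so the size is uncertain. The 4 FAB1 genes, for the kinases of the next step, were not called, and FAB1B, the brightest, had 124 ± 6.71 in NOT1+/- and 135 ± 4.35 in WT. In this list 1 of 5 genes was thus called higher and 0 lower, beside 8.84% and 3.22% of all features.

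Of 24 phosphoinositide phosphatases 5 rose and 0 fell, beside 8.84% called higher and 3.22% lower over all features. Their median log2 fold change was 0.21. Which of them act on the lipid that a PIP5K makes was not tested. AT3G43220, a SAC-domain phosphatase also named SAC3, had 100.4 ± 6.28 in NOT1+/- and 24.9 ± 5.73 in WT (2.04, SE 0.21, limma adjusted p = 4.50e-04). BST1, a 5-phosphatase known from root hairs, had 260.2 ± 34.5 in NOT1+/- and 96.6 ± 16.7 in WT (1.44, SE 0.19). The 5-phosphatase gene 5PTase12, the brightest of the list in WT, had 536 ± 29.2 in NOT1+/- and 295 ± 11.1 in WT (0.86, SE 0.15). A 5-phosphatase that acts on the lipid reverses the step that a PIP5K makes. ATSAC1, also of the SAC type, had 58.5 ± 5.33 in NOT1+/- and 33.5 ± 2.54 in WT (0.80, SE 0.16), and ATSAC1B (0.76), named after its value was seen, made up the 5. The rises numbered 3 without WT replicate 1 or NOT1+/- replicate 1 or 2, and 2 with 1 fall after quantile normalization.

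Of 9 phospholipases C, which cleave the lipid product, 1 rose and 1 fell (median log2 fold change -0.14), again beside 8.84% and 3.22% of all features. PLC5 had 37.2 ± 5.60 in NOT1+/- and 82.6 ± 7.33 in WT (-1.16, SE 0.17, limma adjusted p = 0.0037), and AT3G55940 had 31.8 ± 3.19 in NOT1+/- and 16.9 ± 3.56 in WT (0.92, SE 0.20). The rise of AT3G55940 was lost without WT replicate 2 or 3 or NOT1+/- replicate 2 or 3. AT2G40116, the brightest of the list, had 1027 ± 65.2 in NOT1+/- and 998 ± 29.3 in WT (0.04, not called).

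**Figure D5:**
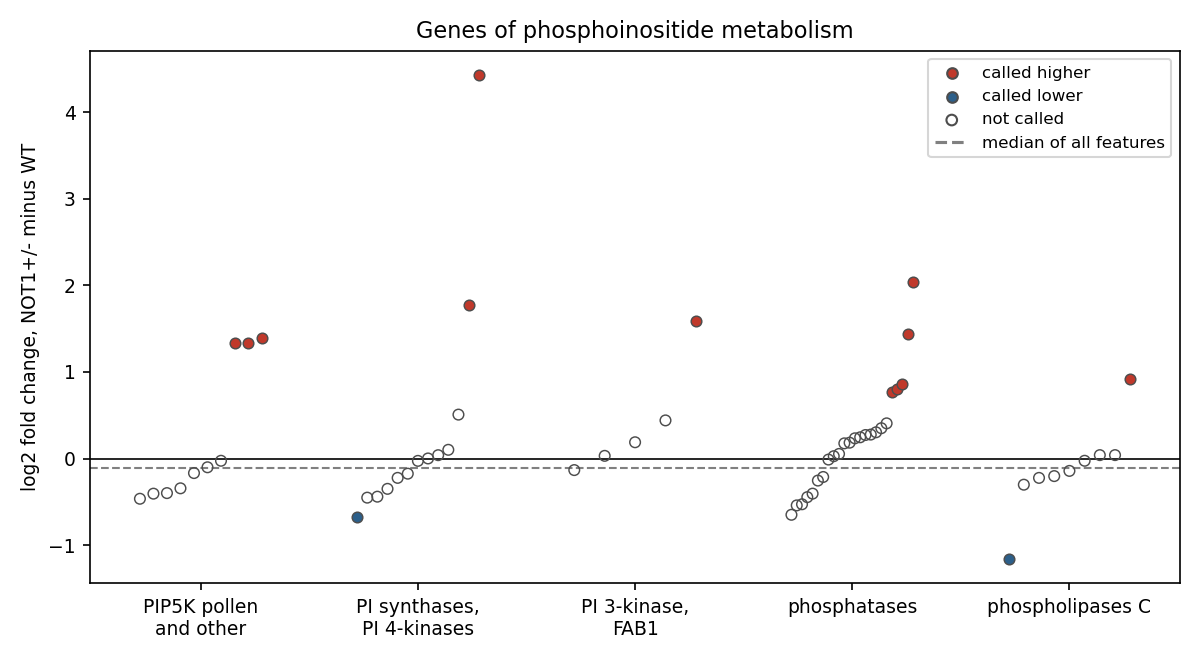
Log2 fold change, NOT1+/- minus WT, of each gene of 5 groups of phosphoinositide metabolism, ordered by size within a group; red and blue circles are called higher and lower by limma, open circles are not called, and the dashed line is the median of all features. PIP5K4, PIP5K5 and PIP5K6 lie at 1.33 to 1.39, apart from the other PIP5K genes, and single genes of other groups, such as BST1 at 1.44, lie near them. Of 24 phosphatases 5 were called higher, beside 8.84% of all features.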

How the data were processed

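RNA from 3 NOT1+/- and 3 WT samples of sorted pollen was measured on 6 one-colour arrays. The deposited table holds intensity values on a linear scale, 1 per locus and array, made by the authors with Affymetrix Expression Console per the submitters' processing notes. How probes were summarised, background was corrected and arrays were scaled, and the software version, the sources used here do not give. Depth does not apply to arrays, and their number limits the precision. NOT1+/- minus WT was estimated on plain log2 intensities, with neither an offset nor a filter, across all 27827 features by lmFit and eBayes in their default form (limma 3.58.1, R 4.3.3), with Benjamini-Hochberg adjustment over all of them. The same steps were tested on simulated data. Fold changes are ratios of geometric means, group values arithmetic means ± SD, and percentiles ranks within an array.

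The members, the gene lists and the alternatives were chosen with earlier results of these data known. Named genes were all members, NOT1, the markers, and in each of the 4 pathway lists up to 4 called genes by absolute log2 fold change and the gene with the highest WT level; others are said to be chosen later. Some genes of these lists are not reported here and were left out of their counts. The highest 10% of WT level as a second background and the alternatives for the marker lists were added after seeing the data. Gene symbols come from the RefSeq table of assembly TAIR10.1, which held all 10 members and gave a PIP5K or PIPK symbol to each but AT1G60890. Member names follow the list. Whether replicates came from separate plants is not stated beyond the word biological. Figures were drawn with matplotlib 3.10.9.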

Additional observations from a re-analysis of the deposited data

How the results depend on the processing

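The count of 3 higher and 0 lower pollen members and of 0 called other members did not change under any of the 17 alternatives, but other results did change. The 2 level filters tested fewer members, with 4 of the 5 pollen members left in each. Of the 5 other members, 2 were left above the median level and 1 above the 75th percentile, so the rest could not be called there. Counts of all features called lower, 896 with the values as deposited, were 1991 after quantile normalization, 571 after median centring, 1460 after 75th percentile centring, 1490 with 16 units added before log2, 1515 and 1363 among features above the median and the 75th percentile of level, 1433 with a floor of 8, 1458 with eBayes trend and robust, 231 by the unequal-variance test (1229 higher, against 2461) and 258 to 711 without 1 array (1822 to 2248 higher). Among synthases and 4-kinases the falls, 1 in the main setting, numbered 3 after quantile normalization, with 16 units added and above the 75th percentile of level, 2 with trend and robust, 0 after median centring and by the unequal-variance test (which called 1 rise), and 0 to 1 without 1 array. Among 3-kinases, 2 rises were called above the 75th percentile of level and 1 fall after quantile normalization. Phosphatase rises were 2 after quantile normalization, 3 by the unequal-variance test and 3 to 5 without 1 array, and 1 fall was called after quantile normalization and 75th percentile centring, with 16 units added, with either level filter, with trend and robust and with array weights, and 0 to 1 without 1 array. Phospholipase C rises were 0 by the unequal-variance test and 0 to 1 without 1 array, and falls 2 after quantile normalization and with the floor of 8 and 0 by the unequal-variance test. PIP5K2, never called, turned to 0.0634 after quantile normalization, 0.0526 after median centring, 0.0371 with the floor of 8, 0.12 without WT replicate 3 and 0.15 without NOT1+/- replicate 1 (-0.16 to 0.15 without 1 array). NOT1 was not called after median centring (-0.57) or without any 1 array (-0.68 to -0.59). The paralog ratio change of PIP5K2 over PIP5K1 was 0.61 after quantile normalization (0.21 to 0.47 without 1 array), and that of PIP5K10 over PIP5K11 was 0.18 after quantile normalization, -0.0447 with 16 units added and -0.0300 with the floor of 8. Among markers, the 2 leaf photosynthesis falls were 0 or 1 under each alternative other than 75th percentile centring, and the tapetum fall was not called under any alternative other than 75th percentile centring, array weights and leaving out WT replicate 3. Apart from settings that test fewer features or samples, the cause was not tested. Features dim on both groups of arrays, such as PIP5K2, PIP5K8, PIP5K9 and PIP5K10, have group means within or below the range of the array medians, where fold changes depend on the unknown background correction.

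Whether the replicate numbers of the labels pair the samples is not settled. Deviations from the group means correlated across features at 0.11, 0.13 and -0.01 between samples numbered 1, 2 and 3. Samples numbered 1 and 2 correlated best with their own number in the other group, and those numbered 3 did not. With the replicate block, lower calls over all features numbered 555, the falls among synthases and 4-kinases 0 and the rises among phospholipases C 0, and NOT1 was not called (log2 fold change -0.65, adjusted p = 0.070). PIP5K4, PIP5K5 and PIP5K6 kept their calls with the block (adjusted p = 0.00548, 0.00587 and 0.00513).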
